A study of Eohaustorius estuarius with 16 samples.

Results

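The 200 probes with the highest mean signal on control arrays of whole-body *Eohaustorius estuarius*, a burrowing estuarine amphipod, are described here, out of 8507 probes on the array. Each array was scaled on its 75th percentile of signal, log2 was taken, and probes were ordered by their mean over the 8 control arrays. A probe was passed over when its cyfluthrin and control arrays had ranges that did not overlap, so both the level in controls and the response to cyfluthrin took part in the choice. Each probe stood for its own contig of an assembled transcriptome. The files pair no contig with a gene name or a sequence, so contigs are given by identifier, without the prefix "eohaus_trim.v2-" that all share, and without a function.

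Laboratory A, 1 of 6 in a study of how well array data compare between laboratories, hybridised 16 whole-body samples. The groups were 8 samples of amphipods held for 10 days on sediment spiked with cyfluthrin at a nominal 1.6 µg/kg, and 8 of amphipods held for 10 days on solvent-spiked sediment (control). The sources used here state neither the sex and age of the animals nor whether a sample was 1 animal or a pool, nor whether the samples of a group had separate exposure chambers. The p-values below therefore rest on the spread among these arrays, part of which may be technical. The arrays lay on 2 slides with 4 arrays of each group on each; replicates 1 to 4 lay on slide 1 and replicates 5 to 8 on slide 2. All cyfluthrin arrays lay in slide row 2 and all control arrays in row 1, so treatment and row cannot be told apart, and neither can slide and the samples on it.

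Cyfluthrin is a pyrethroid, an insecticide that holds voltage-gated sodium channels of nerve open. In RNA of a whole crustacean, transcripts of the translation machinery, of mitochondrial energy metabolism, of muscle fibres and of digestive enzymes are usually among the most plentiful. A whole-body sample mixes all tissues, so fewer cells of a type and less RNA per cell cannot be told apart. The signal of a probe also depends on how well it binds its target, so the order below is one of signal.

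Control means of the 200 contigs ran from a log2 signal of 16.92 down to 12.20, with a median of 12.78, while the median over all 8507 probes was 6.87. On the linear scale this was a span of 26.4-fold, from 123887 to 4696 scaled units. All 200 contigs were well above background on all 16 arrays, and all 200 entered the tests. Their cyfluthrin means ran from 16.67 to 10.99, with a median of 12.74. The last 3 contigs inside the limit, contig_1621, contig_568 and contig_2355, had control means of 12.21, 12.20 and 12.20. The first 3 outside it, contig_5259, contig_4526 and contig_6224, had 12.19, 12.19 and 12.18, so the limit cut through a continuous range.

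The overlap condition passed over 6 brighter contigs, all of them lower on every cyfluthrin array than on any control array that measured them. Over all 8507 probes, 1.08% had ranges apart. Contig_2392, which would have stood second, had a mean log2 signal of 15.44 ± 0.07 on 5 cyfluthrin arrays and 15.82 ± 0.15 on 7 control arrays (SD). Contig_2434 had 13.08 ± 0.39 with cyfluthrin and 14.28 ± 0.25 in controls, and contig_1197 had 11.47 ± 0.30 with cyfluthrin and 12.53 ± 0.23 in controls (SD, n = 8 each). The other three passed over were contig_1946, contig_3881 and contig_3325, at 0.47 to 0.51 log2 units below control; contig_3881 rested on 3 control arrays.

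Contig_42 was the brightest contig in both groups. Its log2 signal ranged from 15.65 to 17.34 with a median of 16.71 on 6 cyfluthrin arrays, and from 16.37 to 17.50 with a median of 16.85 on 7 control arrays. The highest single value was that of control replicate 8 and the lowest that of cyfluthrin replicate 8, and the ranges of the groups overlapped over most of their width. Contig_8297, the next among the 200, ranged from 14.38 to 16.27 with a median of 15.11 on 7 cyfluthrin arrays and from 14.59 to 16.44 with a median of 15.58 on 6 control arrays.

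After these came a run of close neighbours. Contig_407 ranged from 14.44 to 15.38 with a median log2 signal of 14.83 on 8 cyfluthrin arrays and from 14.26 to 15.60 with a median of 15.04 on 7 control arrays. Contig_530 had a mean of 14.73 ± 0.28 on 7 cyfluthrin arrays and 14.86 ± 0.15 on 8 control arrays, and contig_8079 had 14.47 ± 0.41 and 14.73 ± 0.36 (SD, n = 7 each). Neighbouring control means in this run differed by less than 1 SD of either contig. Contig_2945 had 14.63 ± 0.25 with cyfluthrin and 14.58 ± 0.21 in controls, and contig_5238 had 14.40 ± 0.32 with cyfluthrin and 14.38 ± 0.17 in controls (SD, n = 8 each). Contig_1481 had 14.46 ± 0.19 on 8 cyfluthrin arrays and 14.43 ± 0.22 on 7 control arrays, and contig_1222 had 14.10 ± 0.45 on 7 cyfluthrin arrays and 14.45 ± 0.24 on 8 control arrays (SD). In all of these the groups overlapped, and the difference of the means was smaller than the larger SD.

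Contig_586 was the exception among the 10 brightest. Its log2 signal ranged from 12.87 to 14.42 with a median of 13.77 on cyfluthrin arrays, and from 14.30 to 15.34 with a median of 14.89 on control arrays (n = 8 each). Only the highest cyfluthrin array, replicate 3, reached above the lowest control array, replicate 7. It ranked 28th on cyfluthrin arrays and 5th on control arrays.

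**Figure D1:**
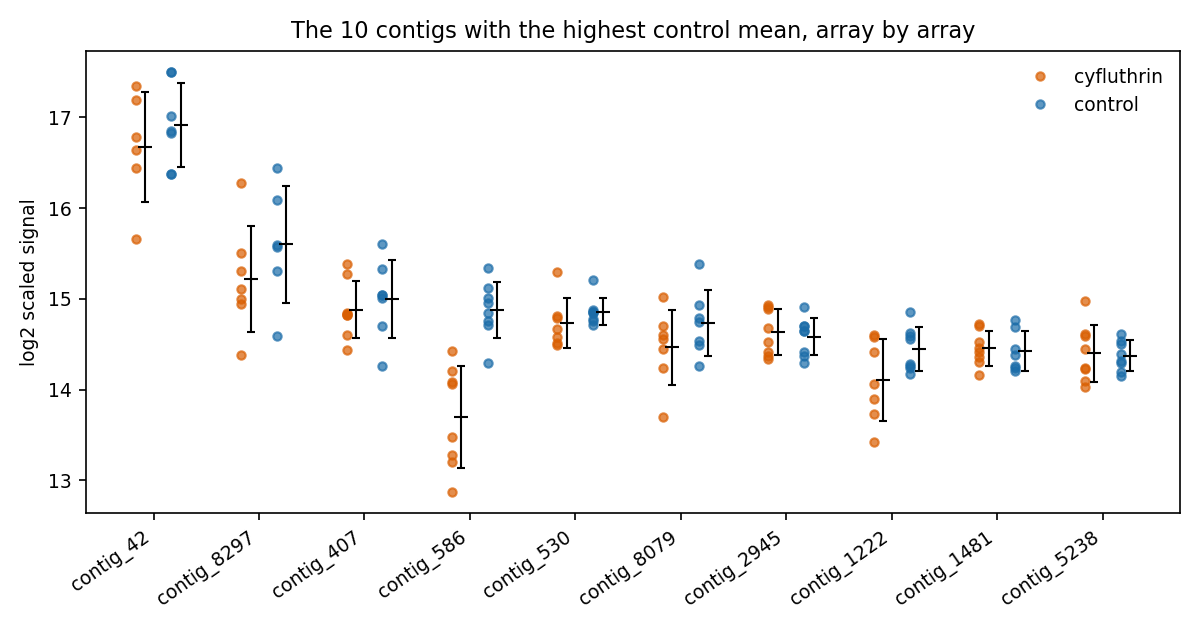
Log2 scaled signal (vertical axis) of the 10 brightest contigs on each cyfluthrin array (orange, left of each pair) and each control array (blue, right of each pair), with the mean and SD of each group in black; arrays with no value are left out. Contig_42 stands above all others at means of 16.67 and 16.92, and contig_586 is the contig whose cyfluthrin points lie almost wholly below its control points, at means of 13.70 and 14.88.

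The order on control arrays was largely that on cyfluthrin arrays. Of the 200 contigs, 173 were also among the 200 brightest by cyfluthrin mean, 193 among the brightest 300 and 198 among the brightest 400. Among the 50 brightest of the 200, 42 ranked in the first 50 on cyfluthrin arrays, and 6 of the 10 brightest ranked in the first 10. The contig that stood lowest was contig_1777, at rank 537 by its cyfluthrin mean and rank 93 by its control mean. The contigs were chosen on control means, which by itself places more of them at the top in controls. The overlap condition passed over contigs whose groups stood apart, which by itself favours a like order in both groups.

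On single arrays, 154 ± 7.58 of the 200 contigs were among the array's own 200 brightest probes on cyfluthrin arrays, and 167 ± 8.20 were on control arrays (SD, n = 8 each). The single arrays ranged from 138 to 161 with cyfluthrin and from 156 to 174 in controls. Not all 200 had a value on each array. Of those that had one, the share was 79.6% ± 4.39 with cyfluthrin and 88.2% ± 3.98 in controls (SD, n = 8 each). A bright contig could nonetheless stand far lower in a single sample: contig_1015 stood at rank 2131 on cyfluthrin replicate 3. The 200 contigs gave 32.2% ± 2.19 of the summed signal of all probes on cyfluthrin arrays and 33.8% ± 1.98 on control arrays (SD, n = 8 each). The choice on control means by itself favours the control arrays in these counts and shares. By slide the share was 31.7% ± 1.71 on slide 2 and 34.4% ± 1.70 on slide 1 (SD, n = 8 each). These shares leave out spots that the scanner software had called outliers. With them kept the shares were 33.0% ± 2.23 with cyfluthrin and 35.1% ± 1.42 in controls, and they were not worked out by slide. More values were left out on slide 2, where 181 to 194 of the contigs had a value on an array, against 194 to 199 on slide 1.

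The outlier calls of the scanner software, which mark a spot as uneven or as far from its duplicates, were far more frequent on these bright contigs than on other probes. Of 963 outlier calls over the 16 arrays, 446 (46.3%) were on the 200 contigs, which held 2.22% of the spots. That was 8.25% of their 5408 spot readings, against 0.977% for the next 200 probes and 0.217% for all other probes. By rank of control mean over all probes, passed-over contigs included, the share was 17.3% among ranks 1 to 50, 9.04% among the next 50, 4.02% among the next 100 and 1.09% among the 200 ranks after those. It was 0.168% among probes beyond rank 1000. On the 200 contigs, 191 of the calls were on cyfluthrin arrays and 255 on control arrays, and 310 were on slide 2 and 136 on slide 1. Over all probes, these 200 included, an array had 59.12 ± 20.14 calls with cyfluthrin and 61.25 ± 17.71 in controls. By slide it had 74.25 ± 11.77 on slide 2 and 46.12 ± 11.46 on slide 1 (SD, n = 8 each).

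**Figure D2:**
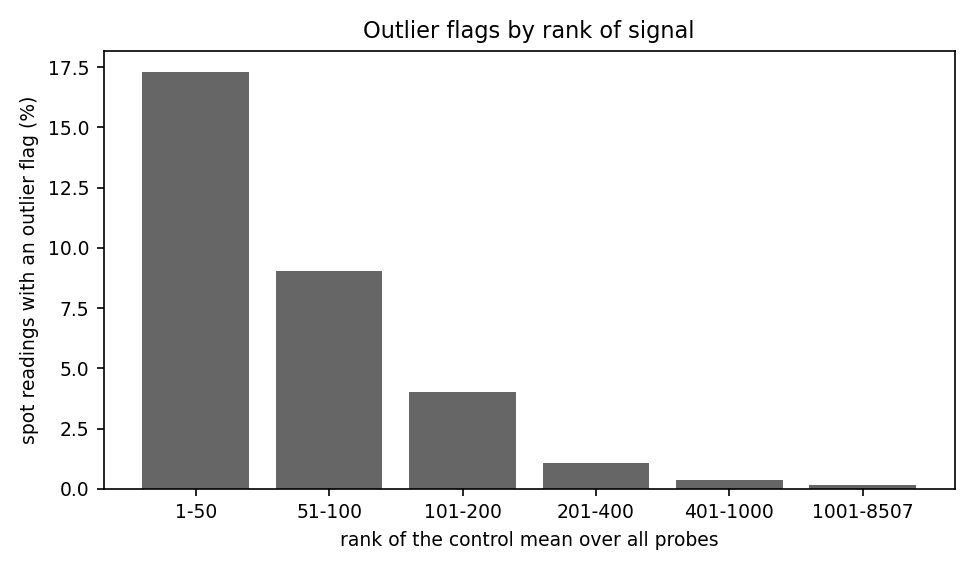
Percent of spot readings that carried an outlier call (vertical axis, starting at 0) for all probes, passed-over contigs included, in bins of their rank by control mean (horizontal axis, 1 is the brightest), over all 16 arrays. The bars go down in each successive bin, with 17.3% at ranks 1 to 50 and 0.168% beyond rank 1000.

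Because such spots were left out, 131 of the 202 probe values missing in the data belonged to these contigs. In all, 148 of the 200 had a value on all 16 arrays, and 52 lacked at least 1 array. Of the 131 missing values, 48 were on cyfluthrin arrays and 83 on control arrays. The 62 contigs with a single spot on the array lacked 66 values and the 138 with a duplicate spot lacked 65, which is 6.65% and 2.94% of their values. No spot was saturated. On at least 1 array, 50 of the contigs had a spot read from the scanner's low-gain pass, which is used for very bright spots. These lacked 7.62% of their values, and the 150 never read that way lacked 2.92%. The thinnest measured was contig_344, with 4 cyfluthrin values, 3 control values and none on slide 2.

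The identifiers of the 200 contigs lay towards the low end of the assembly's numbering. Their median contig number was 2226, against 2833 for the next 200 probes and 4356 for all other probes. Contigs numbered up to 1000 made up 59 of the 200 (29.5%), against 19.5% of the next 200 probes and 11.1% of all other probes. The probes came from 3 design sets on the array, which held 69, 62 and 69 of them, or 1.97%, 2.53% and 2.69% of each set.

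The 200 contigs varied less between arrays than most probes did. Their median SD was 0.29 log2 units over cyfluthrin arrays and 0.24 over control arrays, against 0.47 and 0.38 over all 7552 probes tested. The next 200 probes had 0.31 with cyfluthrin and 0.27 in controls, so most of this gap was shared by bright probes just below the limit. With slide means removed, the medians for the 200 were 0.23 with cyfluthrin and 0.23 in controls. The SD was larger with cyfluthrin in 142 of the 200 (71.0%), and in 65.1% of all probes tested. Duplicate spots on an array differed by a median SD of 0.0833 in the 138 contigs that had them, against 0.133 over all probes tested. A control SD of at least 0.5 was seen in 14 of the 200 (7%) and in 32.0% of all probes tested.

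Contig_1015 had the largest spread in controls. Its log2 signal on cyfluthrin replicates 1 to 8 was 11.25, 10.34, 8.82, 14.57, 11.46, 12.97, 11.23 and 10.82. On control replicates 1 to 8 it was 10.82, 12.77, 13.44, 15.39, 11.99, 10.67, 14.22 and 14.73. Replicate 4 was the highest array in both groups, and the groups overlapped. The SD was 1.72 with cyfluthrin and 1.76 in controls, a span of 53.8-fold and of 26.5-fold between the lowest and highest array. Its duplicate spots differed by an SD of only 0.0710 within an array.

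Contig_2370, with a control SD of 1.35, followed. Its log2 signal ranged from 11.38 to 13.22 with a median of 12.28 on cyfluthrin arrays and from 11.16 to 14.96 with a median of 11.96 on control arrays (n = 8 each). On control arrays replicates 6, 7 and 8, all on slide 2, were at 13.49 or above, while the other five were at 11.97 or below. Contig_289 and contig_8297 came next, with control SDs of 0.66 and 0.64.

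At the other end, contig_1296 was nearly flat in controls. It ranged from 12.13 to 12.58 with a median of 12.23 on cyfluthrin arrays and from 12.47 to 12.68 with a median of 12.60 on control arrays (n = 8 each), with SDs of 0.16 and 0.07. Contig_876 had SDs of 0.17 with cyfluthrin and 0.08 in controls, and contig_5844 had 0.14 with cyfluthrin and 0.10 in controls (n = 8 each). Contig_344 had the smallest control SD, 0.06, but on 3 arrays.

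**Figure D3:**
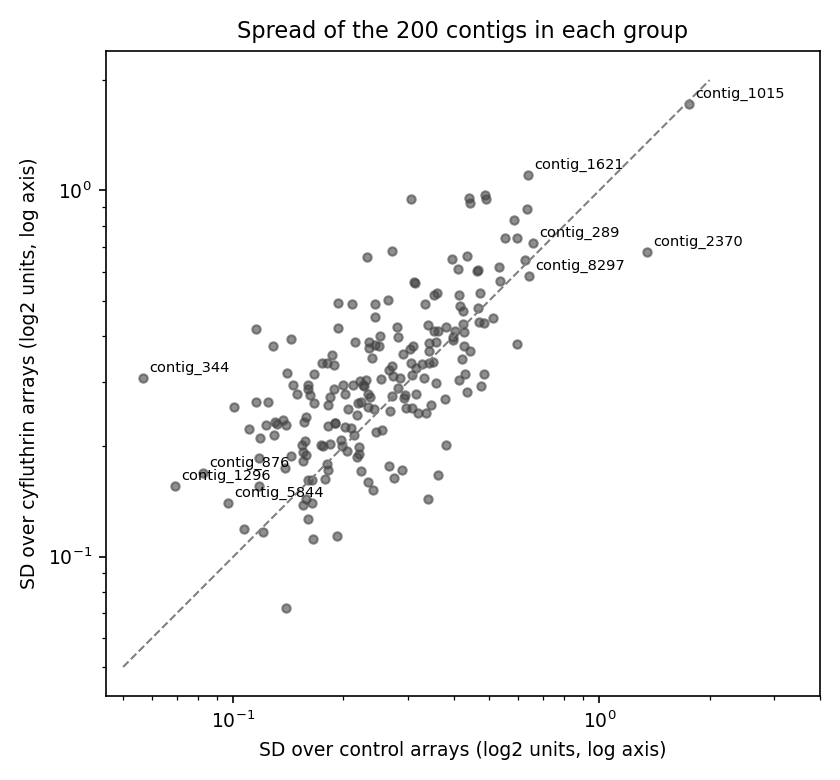
SD of log2 signal over cyfluthrin arrays (vertical axis) against SD over control arrays (horizontal axis), both in log2 units on log axes, for each of the 200 contigs; the dashed line marks equal SDs. More contigs lie above the line (142 of 200) than below it, and contig_1015 and contig_2370 lie far to the right at control SDs of 1.76 and 1.35.

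Between cyfluthrin and control arrays the 200 contigs differed little in most cases. This comparison is a description only, since control means and the overlap of the groups both took part in the choice of the contigs. Choice on high control means by itself favours differences below 0. The median difference was −0.13 log2 units, with quartiles of −0.32 and 0.07, and 132 of the 200 (66.0%) had a difference below 0. Over all probes tested the median was 0.08, with 39.5% below 0. The sign of that all-probe median varied with the scaling. With quantile normalization the medians were −0.08 for the 200 and −0.04 for all probes. In the authors' deposited table they were −0.09 and −0.03, and with normexp and quantile normalization −0.09 and −0.02. Median scaling gave −0.27 and −0.06. A 75th percentile taken only over probes detected on every array gave −0.09 and 0.11. At least 1 log2 unit in either direction was reached by 7 of the 200 (3.50%), beside 3.79% of all probes tested. In the limma fit over all 7552 probes, 2 of the 200 (1%) were called higher with cyfluthrin and 9 (4.50%) lower at an adjusted p under 0.05, beside 1.30% and 1.48% of all probes tested. Together these were 11 of the 200 (5.50%), beside 2.78% of all probes tested. Nothing is read from these shares.

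The count of 11 changed with single arrays and with the slide. Without control replicate 1, 3 or 6 or cyfluthrin replicate 6, the count was 6, beside 138 to 156 of all probes (1.83% to 2.07%). Without control replicate 5, 7 or 8 it was 7, beside 176 to 196 (2.33% to 2.6%). With the slide as a block the count was 19, beside 347 of all probes tested (4.60%). Within slide 2 it was 4, beside 195 (2.58%), and within slide 1 it was 1, beside 12 (0.159%). Scaling arrays on their median gave 7, all of them lower, beside 151 of all probes.

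Contig_4126 had the largest positive difference. Its log2 signal ranged from 13.71 to 16.02 with a median of 14.98 on 7 cyfluthrin arrays and from 12.98 to 14.31 with a median of 13.79 on 8 control arrays. The cyfluthrin arrays spread widely, and 3 of them lay inside the range of controls. The difference was 1.25 log2 units (SE 0.37), 1.21 within slide 2 and 1.22 within slide 1. Contig_5054 ranged from 12.65 to 14.07 on cyfluthrin arrays and from 12.23 to 12.82 on control arrays (n = 8 each), a difference of 0.76 (SE 0.19). It was 0.39 within slide 2 and 1.13 within slide 1, and the 4 highest values were the 4 cyfluthrin arrays of slide 1. Contig_921 ranged from 12.82 to 13.79 on cyfluthrin arrays and from 12.03 to 13.19 on control arrays (n = 8 each), a difference of 0.69 (SE 0.16) that was 0.69 within each slide.

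Contig_1777 had the largest negative difference. On cyfluthrin replicates 1 to 8 its log2 signal was 10.76, 11.10, 10.94, 10.36, 11.82, 10.49, 12.05 and 10.36. On control replicates 1 to 5 and 7 it was 12.88, 13.53, 12.93, 13.19, 11.70 and 13.08, with no value on replicates 6 and 8. All control arrays except replicate 5 lay above all cyfluthrin arrays. The difference was −1.90 (SE 0.33), or 0.268-fold, and it was −1.21 within slide 2 and −2.34 within slide 1.

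Contig_1015 differed by −1.57 with an SE of 0.81, so its 95% interval of −3.29 to 0.15 included 0. Contig_2525 ranged from 10.02 to 11.77 with a median of 11.19 on 7 cyfluthrin arrays and from 11.71 to 12.91 with a median of 12.59 on 8 control arrays, a difference of −1.35 (SE 0.26). It was −1.41 within slide 2 and −1.31 within slide 1. Contig_586, described above, differed by −1.18 (SE 0.22), or 0.442-fold. Its means were 13.21 with cyfluthrin and 14.70 in controls on slide 2, and 14.19 with cyfluthrin and 15.06 in controls on slide 1.

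The slides offered a comparison that played no part in the choice of contigs. It was fitted with limma over all probes with treatment as a term, and it sets replicates 5 to 8 against replicates 1 to 4 as much as slide against slide. Slide 2 was the brighter of the pair, with a 75th percentile of signal of 572 ± 168 units, against 338 ± 48.6 units for slide 1 (SD, n = 8 each). At an adjusted p under 0.05, 7 of the 199 contigs with a value on both slides (3.50% of the 200) were higher on slide 2 and 49 (24.5%) were lower, against 17.6% and 9.18% of the 7551 probes tested. Together that was 56 contigs (28.0%), against 26.8% of all probes tested. The median difference of the contigs was −0.21 log2 units, with 153 (76.5% of the 200) below 0, while that of all probes was 0.08, with 43.6% below 0.

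The excess of lower over higher contigs varied with the scaling, and lower ones outnumbered higher ones under each scaling run. With quantile normalization 13 contigs were higher and 17 lower on slide 2, with a median of −0.06 against −0.07 over all probes. Beside them 2196 of all probes were called (29.1%), 916 of them higher. With the values of the authors' deposited table, the split was 14 higher and 16 lower, beside 2198 of all probes (29.1%), 914 of them higher. With normexp and quantile normalization 18 were higher and 19 lower, beside 2115 of all probes (28.0%), 881 of them higher. With median scaling 2 were higher and 121 lower, beside 2959 of all probes (39.2%), 906 of them higher. The medians then moved to −0.46 for the contigs and −0.16 for all probes. In each of these alternatives lower probes also outnumbered higher ones over all probes called, so that direction was not particular to the contigs. Within cyfluthrin arrays alone 1 contig was called, beside 196 of all probes (2.60%), and 49 contigs had an unadjusted p under 0.05. Within control arrays alone 1 contig was called, beside 844 of all probes (11.2%), and 27 contigs had an unadjusted p under 0.05.

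**Figure D4:**
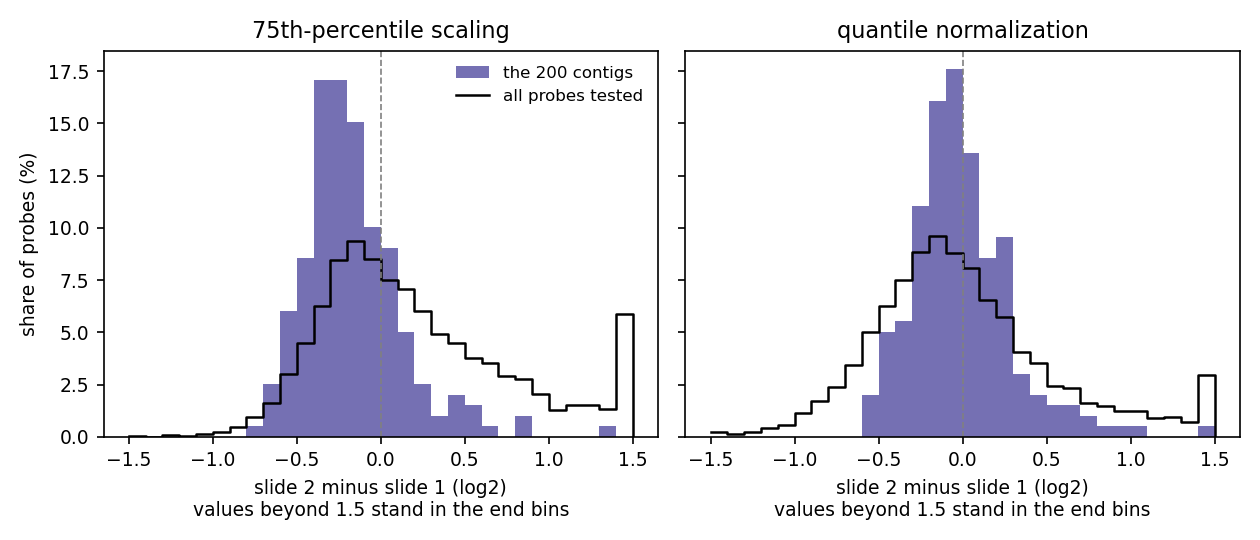
Share of probes in percent (vertical axis) by slide 2 minus slide 1 difference in log2 units (horizontal axis, bins of 0.1), for the contigs (bars) and for all probes tested (line), after scaling on the 75th percentile (left) and after quantile normalization (right); values beyond 1.5 stand in the end bins. The bars centre below 0 on the left (median −0.21) and close to 0 on the right (median −0.06).

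Contig_2370 was the most raised on slide 2. Its log2 signal averaged 13.09 ± 1.01 on slide 2 and 11.70 ± 0.43 on slide 1 (SD, n = 8 each), a difference of 1.39 (SE 0.37, limma adjusted p = 0.0130). Most of it came from control replicates 6 to 8. The difference was 1.97 within control arrays (limma adjusted p = 0.0541) and 0.81 within cyfluthrin arrays (limma adjusted p = 0.243). Contig_2503 averaged 13.66 ± 0.40 on slide 2 and 12.84 ± 0.57 on slide 1 (SD, n = 8 each), a difference of 0.82 (SE 0.24, limma adjusted p = 0.0205). Contig_6751 averaged 12.79 ± 0.68 on slide 2 and 11.90 ± 0.88 on slide 1, a difference of 0.89 (SE 0.30, limma adjusted p = 0.0402), a call that was lost under 15 of 29 alternatives, 11 of them with 1 array left out.

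Contig_2015 was among the most lowered on slide 2. On slide 2 its log2 signal was 12.59, 12.52, 12.32 and 12.52 on cyfluthrin arrays and 13.00, 13.26, 12.49 and 12.63 on control arrays. On slide 1 it was 13.75, 13.05, 13.11 and 13.25 on cyfluthrin arrays and 13.09, 13.45, 13.21 and 13.77 on control arrays. Among cyfluthrin arrays the slides did not overlap, and among control arrays replicate 6 of slide 2 lay above replicates 1 and 3 of slide 1. The difference was −0.67 (SE 0.14, limma adjusted p = 0.00359). Contig_1483 differed by −0.71 (SE 0.20, limma adjusted p = 0.0182). Contig_586 differed by −0.67 (SE 0.15, limma adjusted p = 0.00391), with −0.98 within cyfluthrin arrays and −0.36 within control arrays.

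A slide by cyfluthrin term was past the adjusted threshold of limma in 0 of 197 contigs that could be fitted (0.00% of all 7548 probes), and 6 of the contigs had an unadjusted p under 0.05, beside 241 of all probes (3.19%). Only 4 arrays of each group lay on a slide, so a like response on both slides is not shown by this.

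After the mean of each group on each slide was removed, the 148 contigs with a value on all arrays were weakly related over the 16 arrays. Their median pairwise correlation was 0.157, and 0.132 for the next 200 probes, and 3.92% of pairs exceeded 0.7, against 3.89% in the next 200. These correlations are across arrays that share slides and scaling. Joined by average linkage at r of 0.7, 35 of the 148 fell into 4 groups of at least 5 contigs. The groups were drawn from the values, so no test was made of them. Their number changed with the setting, to 114 contigs at r of 0.5, 13 at r of 0.8, 56 with quantile normalization and 59 with outlier spots kept.

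The first group had 13 contigs, led by contig_2015, contig_792 and contig_3514. Its mean log2 signal was 12.61 ± 0.33 on cyfluthrin arrays and 12.82 ± 0.36 on control arrays (SD, n = 8 each), and 7 of the 13 were among the contigs called lower on slide 2. Control replicate 4 was highest of all arrays at 13.41, and cyfluthrin replicate 7 was lowest at 12.19, next to control replicate 7 at 12.20. The second had 9 contigs, led by contig_6751, contig_5396 and contig_1286, at 12.54 ± 0.54 with cyfluthrin and 12.82 ± 0.35 in controls (SD, n = 8 each). Replicate 2 was its lowest array in both groups, at 11.45 with cyfluthrin and 12.08 in controls. The third had 7 contigs, led by contig_3492, contig_8217 and contig_2484, at 12.53 ± 0.20 with cyfluthrin and 12.54 ± 0.18 in controls (SD, n = 8 each).

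The fourth group held contig_1015 with contig_289, contig_1621, contig_5761, contig_107 and contig_727. Its mean log2 signal stood at 13.81 on cyfluthrin replicate 4 and 14.06 on control replicate 4. On the other seven arrays of each group it lay between 11.57 and 12.55 with cyfluthrin and between 12.08 and 13.28 in controls. All 6 contigs were highest on replicate 4 in both groups. Contig_1621, which was at 14.51 on cyfluthrin replicate 4 and 13.53 on control replicate 4, was otherwise between 11.01 and 12.29 with cyfluthrin and between 11.57 and 12.69 in controls. Both arrays lay on slide 1 in slide column 1, and the labels give these samples no property of their own apart from the number. Over the tested probes with a value on all arrays, the deviations of the 2 arrays from their group means correlated at r of 0.567, the highest of 8 same-numbered pairs. Slide means were not removed for this r, so the slide that the arrays of a pair share enters it. The size of this group was 16 at r of 0.5, 3 at r of 0.8, 4 with quantile normalization and 8 with outlier spots kept, and contig_1015 and contig_1621 were in it each time.

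**Figure D5:**
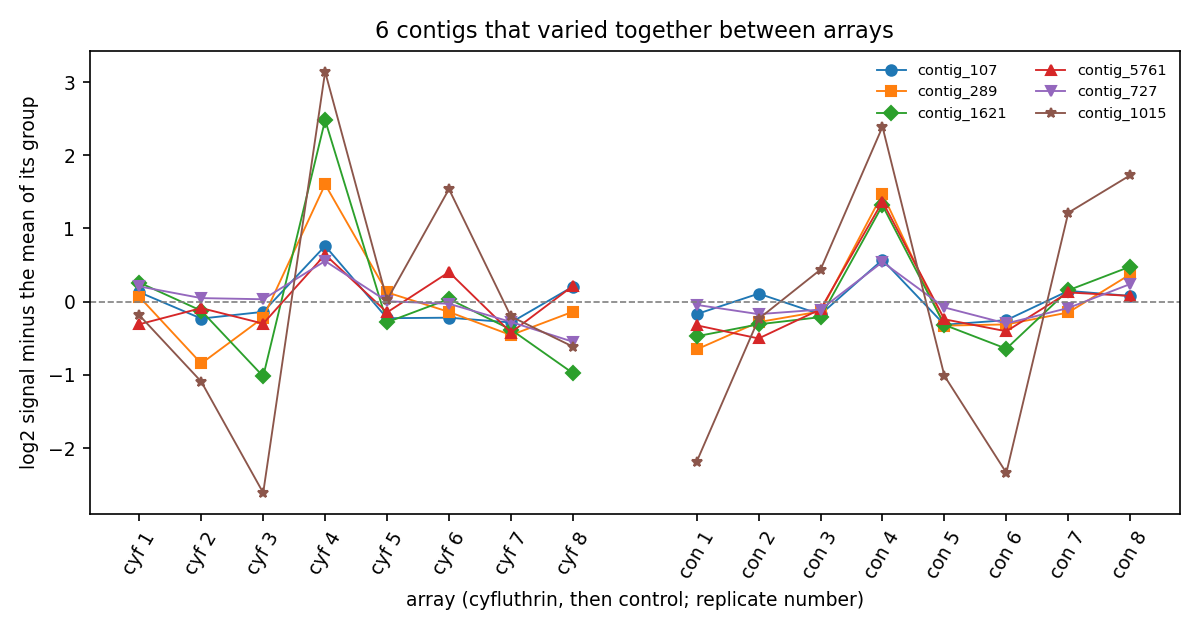
Log2 signal of the 6 contigs of the fourth group minus the contig's mean in its own group (vertical axis), for cyfluthrin arrays (left, cyf) and control arrays (right, con) by replicate number; lines join arrays of a contig and carry no order. Replicate 4 is the highest point of each contig in both groups, at 3.14 with cyfluthrin and 2.39 in controls for contig_1015.

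The contigs whose signal followed that of contig_42 most closely over the arrays, out of 173 that could be compared, were contig_531, contig_727 and contig_4644. Their Pearson correlations with it were 0.754 over 12 arrays, 0.724 over 13 and 0.694 over 13, as a description over arrays that share slides and scaling. Unlike the correlations above, these were taken without removing the means of groups and slides. Contig_42 had no value on cyfluthrin replicates 3 and 4 or control replicate 4, so the replicate 4 arrays did not enter. Contig_531 had a mean log2 signal of 13.15 ± 0.30 on 8 cyfluthrin arrays and 13.41 ± 0.23 on 7 control arrays (SD). Contig_4644 had 13.67 ± 0.34 with cyfluthrin and 13.90 ± 0.31 in controls, and contig_727 had 12.33 ± 0.32 with cyfluthrin and 12.42 ± 0.27 in controls (SD, n = 8 each).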

How the data were processed

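Labelled whole-body RNA of 8 cyfluthrin and 8 control samples was hybridised to single-colour arrays; groups and replicate numbers came from the sample titles. The deposited scanner files hold a linear intensity for each spot, background-subtracted by Agilent Feature Extraction 10.7.3.1 per the file headers, while the submitters' processing notes name version 9.1. The outlier, above-background and low-gain calls are the same program's, per the file headers. The authors' deposited value table holds log2 values with a normalization not given in the sources used here. Every array fitted its own column better than any other column, with r of 0.600 (cyfluthrin replicate 7) to 0.957 after centring of probes. Column medians were −0.055 to 0.084.

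Intensity of 15208 non-control spots was scaled so that each array's 75th percentile equalled the mean of the 16 arrays (455 units), set to at least 5 units and put on the log2 scale. Spots with an outlier call were left out, and spots of a probe averaged. Probes above background on at least 4 arrays of a group (7552) were fitted with limma 3.58.1 in R 4.3.3 (lmFit and eBayes), with Benjamini-Hochberg adjustment over all of them; the scripts were tested on simulated data. Between 6234 and 8478 probes per array were above background, and precision is limited by how many arrays there are.

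The contigs and the settings were chosen with earlier results of these data known. Probes with ranges apart were passed over before the 200 were counted. Named contigs are the 10 brightest, the 4 with the largest and the 4 with the smallest control SD, the 3 with the largest difference in each direction for cyfluthrin and, among those called, for slide, the 3 on each side of the limit, the brighter contigs passed over, the leaders of groups that varied together, and the 3 most like the brightest; the members of the fourth such group were named after their values were seen. Alternatives of scaling, background (normexp with an offset of 50 on median-pixel signals, since the files hold no mean-pixel signal), floor, filter, slide, pairing, weights and left-out arrays were run.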

Additional observations from a re-analysis of the deposited data

Results flagged for a closer look

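Groups of 4 to 8 arrays were checked for the named contigs, for the 200 contigs' share of summed signal and for their count among an array's 200 brightest. Of these 81 groups, 6 had an array far from its group, all of them groups of named contigs. Chance gives about 1 in 20 for groups not picked on their values, but several of these contigs were named for their spread or differences. In contig_530 cyfluthrin replicate 1 stood at a log2 signal of 15.30 with the next at 14.81, and control replicate 2 at 15.20 with the next at 14.88. Cyfluthrin replicate 4 stood at 14.81 in contig_289 (next 13.34) and at 14.51 in contig_1621 (next 12.29). In contig_1777 control replicate 5 was low at 11.70 (next 12.88), and in contig_2484 control replicate 3 was low at 11.99 (next 12.48). Over all 200 contigs 24 of 397 groups (6.05%) had such an array; control replicate 4 was the high array in 7 of them and cyfluthrin replicate 4 in 3.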

How the results depend on the processing

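The 11 contigs called with cyfluthrin (2.8% of all probes called) became 7 with median scaling (2.0%) and 19 with the slide as a block (4.6%). They became 21 with array weights (4.0%), 4 within slide 2 (2.6%) and 1 within slide 1 (0.16%). With 1 array left out they were 6 to 11 (1.8% to 3.0%). The replicate block gave 10 (2.9%), with 6 of the 11 among them, and contig_1777 and contig_921 were not called in it. Same-numbered arrays of the groups shared their slide and its column, and the labels do not say that a number marks a shared source of animals. Deviations from the group means, with slide means not removed, correlated above 0.1 in 6 of 8 same-numbered pairs (range −0.0191 to 0.567). For 2 of 16 arrays the best match was the array of the same number. Whether numbers pair the samples was not settled. The 56 called between slides (26.8% of all probes called) became 123 with median scaling (39.2%) and 30 with quantile normalization (29.1%). They became 37 with normexp and quantile normalization (28.0%) and 30 in the authors' deposited table (29.1%). Within cyfluthrin arrays 1 was called (2.6%), and 1 within control arrays (11.2%). With 1 array left out they were 41 to 59 (21.8% to 30.7%). Within a slide or a group fewer arrays entered; otherwise the cause was not tested. The slide by cyfluthrin count was 0 under all alternatives run (0 to 0 with 1 array left out). Of the 200 contigs, 189 to 200 were chosen again, 193 to 200 with 1 array left out and 192 where at least 5 control values were required, a condition added after seeing the data, as was keeping outlier spots. The median control SD was 0.2253 to 0.2522 with 1 control array left out. The 35 contigs that varied together became 114, 13, 56 and 59 at r of 0.5, at r of 0.8, with quantile normalization and with outlier spots kept. The differences of the 6 contigs named for cyfluthrin and the 6 named for slide kept their direction under all alternatives run, which were not run for single values of the other named contigs; calls were most often lost for contig_5054 and contig_6751 (15 alternatives each) and contig_921 (12). Signal over background limited none of the 200, but missing values left contig_344 with 3 control arrays.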
